A study of Mus musculus with 8 samples.

Results

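A set of 10 imprinted genes with known roles in fetal growth were examined in mouse cardiomyocytes (CMs) of the embryo, the normal adult heart and the hypertrophic adult heart. They were Igf2, H19, Mest, Dlk1, Peg3, Plagl1, Ndn, Grb10, Cdkn1c and Meg3. Members were found by gene symbol in the annotation of the Illumina MouseRef-8 v2.0 BeadChip, on which each probe sits on beads whose brightness gives the level of its transcript. Of the 10 genes, 8 had at least 1 probe, 12 probes in all of 25697 on the array. H19 and Meg3, both long noncoding RNAs, had no probe annotated to them and were not analysed here. A probe was kept where its signal exceeded the negative-control beads (detection p-value under 0.05) on at least 2 of 8 arrays, which held for 9 of the 12 probes and for 7 of the 10 genes. Plagl1 did not pass. Across the array 9803 genes were tested.

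The arrays held total RNA from preparations enriched for CMs, 1 sample to an array, in 3 groups. The embryonic CMs (ECM, 2 samples) came from the fetal ventricle at E15.5, on a CD1 background. The normal adult CMs (ACM, 3 samples) came from the adult ventricle of control mice on a CD1 background. The hypertrophic adult CMs (TAC, 3 samples) came from the ventricle of adult CD1 mice with hypertrophic hearts, 7 days after an operation. For the ACM mice no operation is labelled, so surgery itself and hypertrophy cannot be told apart. Whether replicates are different animals is not given, so the p-values rest on a spread that could be technical. The probes do not separate the maternal from the paternal transcript.

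In an imprinted gene, DNA methylation laid down in the egg or the sperm leaves mainly the copy from 1 parent active. Many such genes act on fetal growth. Igf2, expressed from the paternal copy, encodes insulin-like growth factor 2, a growth factor of the fetus, whereas the maternally expressed Grb10 and Cdkn1c encode brakes on growth signalling and on the cell cycle. Several of these genes are abundant in fetal tissues and fall after birth, the heart among them.

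Start regions of Igf2 and Grb10 are printed here for their CpGs, and those of Mest and Peg3 for motif matches. The stretches show sequence only, and whether any CpG in them carries parental methylation was not measured here. For 8 of the 10 genes 15 start windows from RefSeq (GRCm38.p6), each of 250 bases before to 50 bases after a transcript start, were used. Start regions of H19 and Cdkn1c were not analysed here. CpG dinucleotides, the sites of DNA methylation, are in capitals in the 250 bases before the start of an Igf2 transcript (chr7:142658805-142659054, minus strand) and of the more CpG-rich of the 2 Grb10 starts (chr11:12037421-12037670, minus strand).
Igf2: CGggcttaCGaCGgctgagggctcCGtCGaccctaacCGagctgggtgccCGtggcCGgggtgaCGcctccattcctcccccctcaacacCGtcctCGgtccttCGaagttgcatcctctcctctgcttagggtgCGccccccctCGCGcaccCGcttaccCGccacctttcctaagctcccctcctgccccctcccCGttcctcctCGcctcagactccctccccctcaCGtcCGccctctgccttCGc
Grb10: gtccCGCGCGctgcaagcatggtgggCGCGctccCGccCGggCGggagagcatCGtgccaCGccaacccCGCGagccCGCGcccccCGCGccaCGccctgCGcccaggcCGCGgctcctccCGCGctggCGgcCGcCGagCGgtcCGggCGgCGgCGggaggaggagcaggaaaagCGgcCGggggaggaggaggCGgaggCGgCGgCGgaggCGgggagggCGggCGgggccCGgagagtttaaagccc
These stretches held 22 and 40 CpGs, against a median of 6 and a 90th percentile of 25 over 32851 starts of mouse genes. Each was the most CpG-rich start of its gene. The other Igf2 starts held 6, 10 and 1, and the other Grb10 start held 8.

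Short motifs were searched on both strands of the 15 windows. TGCCGC, the recognition sequence of ZFP57, a zinc-finger protein that protects imprints, occurred in 6 windows, and in 11.6% of all windows. A pair of these 6 are overlapping Mest windows that hold the same 2 sites. GGGGCCCC, the core of the site bound by PLAGL1, occurred in 1 window, that of Peg3, and in 1.08% of all windows. TATAAA, the TATA box, occurred in 1 window, of Meg3, and in 13.6% of all windows. The matches are in capitals in the 250 bases before the start of Mest (chr6:30737800-30738049, plus strand) and Peg3 (chr7:6730420-6730669, minus strand), the former on the strand opposite to the spelled motif.
Mest: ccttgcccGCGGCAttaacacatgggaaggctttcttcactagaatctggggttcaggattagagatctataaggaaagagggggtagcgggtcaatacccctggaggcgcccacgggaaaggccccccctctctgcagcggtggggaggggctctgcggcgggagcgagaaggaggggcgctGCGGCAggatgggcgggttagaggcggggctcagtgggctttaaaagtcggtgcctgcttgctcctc
Peg3: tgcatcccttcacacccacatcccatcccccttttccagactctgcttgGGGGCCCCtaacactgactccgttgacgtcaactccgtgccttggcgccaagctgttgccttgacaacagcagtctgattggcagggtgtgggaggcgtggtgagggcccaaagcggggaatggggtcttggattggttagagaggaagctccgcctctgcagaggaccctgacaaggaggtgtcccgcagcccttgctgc
Mest held ZFP57 letters that began 242 and 67 bases before the start, and Peg3 held PLAGL1 letters that began 201 bases before it. In Igf2 and Grb10 the ZFP57 letters lay after the start, at base 31 and base 25 of the transcript. A match is a run of letters and not a measured binding site.

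All 7 tested genes were higher in ECM than in ACM, by 2.96 (Peg3) to 6.86 (Mest) on the log2 scale, and all 7 were also higher in ECM than in TAC. In TAC, 3 of the 7 were higher than in ACM, namely Igf2, Mest and Ndn, and none was lower. Here a gene was called at an adjusted p under 0.05 from limma, a linear model with moderated variances, with Benjamini-Hochberg adjustment over all 9803 genes. Between ECM and ACM 49% of all genes were called, 26.2% higher and 22.7% lower, and median scaling in place of quantile normalization changed this from 2573 higher and 2226 lower to 4561 and 1117. Between ECM and TAC 43.5% were called, 23.8% higher and 19.7% lower, which median scaling changed from 2332 and 1935 to 4333 and 1025. Between TAC and ACM 5.66% were called, 3.84% higher and 1.83% lower. The median difference of the 7 genes was 5.06 for ECM against ACM and 0.38 for TAC against ACM, where the medians of all genes were 0.01 and -0.02. ECM did not overlap ACM for any of the 7, nor TAC, which held for 66.3% and 65.8% of all genes, and for 35% and 34.9% with ECM higher. Dlk1 and Peg3 passed the filter through the ECM arrays, on which they were high, so a higher level there was built into their being tested, and the counts describe the tested genes and not all 10.

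**Figure D1:**
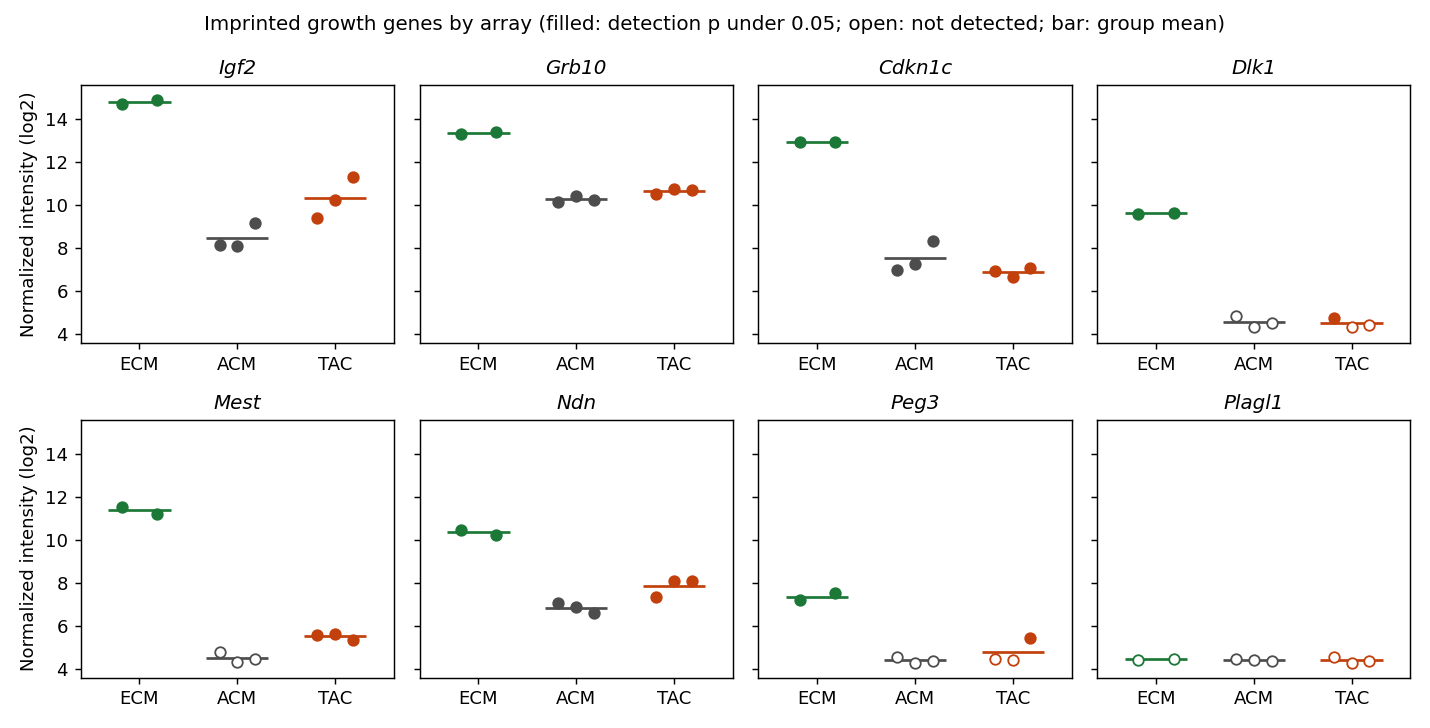
Normalized intensity (log2) of the brightest probe of each gene with a probe, by array, in embryonic (ECM, 2 arrays), normal adult (ACM, 3) and hypertrophic adult (TAC, 3) CMs. Filled points were detected, open points were not, and bars are group means. Every tested gene lies higher on both ECM arrays than on the adult arrays, while Plagl1 lies near the lower end of the scale in all groups.

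Igf2 lies on chromosome 7 (142650768 to 142666816 in GRCm38.p6) and was read by 1 probe, detected on all 8 arrays. Its deposited intensity was 27797 and 30724 on the ECM arrays, 271, 312.5 and 446 on the ACM arrays, and 574, 1110 and 2474 on the TAC arrays. After background correction and normalization its level was 14.71 and 14.90 (log2) in ECM, 8.15, 8.10 and 9.18 in ACM, and 9.43, 10.27 and 11.30 in TAC. The 3 groups did not overlap, with ECM highest and ACM lowest, although the lowest TAC array lay close to the highest ACM array. The difference between ECM and ACM was 6.33 ± 0.50 (log2, SE), 80.2-fold, with an adjusted p of 1.25e-05 by limma. The difference between TAC and ACM was 1.85 ± 0.45 (95% interval 0.83 to 2.87), 3.61-fold, with an adjusted p of 0.0476 by limma. ECM exceeded TAC by 4.48 ± 0.50 (adjusted p = 0.000125 by limma), so the TAC level was raised but far below the embryonic level. The TAC call did not hold without ECM replicate 1, ECM replicate 2, ACM replicate 1, ACM replicate 2, TAC replicate 2 or TAC replicate 3, where the difference was 1.36 to 1.89. Over all leave-outs the difference was 1.36 to 2.29 and the limma adjusted p 0.0211 to 0.132.

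Grb10 encodes an adaptor that binds the insulin and IGF1 receptors and dampens their signal, and is expressed from the maternal copy in most tissues outside the brain. It lies on chromosome 11 (11930499 to 12037428). Its level was 13.30 and 13.39 (log2) in ECM, 10.17, 10.44 and 10.25 in ACM, and 10.53, 10.75 and 10.73 in TAC. Each TAC array was above each ACM array by a small margin, and both ECM arrays were far above the rest. ECM exceeded ACM by 3.06 ± 0.17 (log2, SE), 8.33-fold (adjusted p = 1.52e-06 by limma). The TAC difference of 0.38 ± 0.15 had an interval of 0.04 to 0.72 and did not pass after adjustment (adjusted p = 0.188 by limma), so ACM and TAC, next to each other in the order of levels, did not differ past the threshold. Groups did not overlap for 4 of the 7 genes between TAC and ACM, Igf2, Mest, Ndn and Grb10, all higher in TAC, which held for 12.3% of all genes in this direction and 25.3% in either.

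Cdkn1c encodes p57Kip2, an inhibitor of cyclin-dependent kinases, and is expressed from the maternal copy. It lies on chromosome 7 (143458339 to 143461059), in the same imprinted region as Igf2. Its level was 12.93 and 12.95 (log2) in ECM, 6.99, 7.27 and 8.36 in ACM, and 6.97, 6.65 and 7.09 in TAC. The ECM arrays were nearly equal and the adult groups overlapped, with ACM replicate 3 the highest adult array. ECM exceeded ACM by 5.40 ± 0.36 (log2, SE), 42.2-fold (adjusted p = 4.42e-06 by limma), and TAC by 6.04 ± 0.36 (adjusted p = 3.12e-06 by limma). TAC minus ACM was -0.64 ± 0.32 (95% interval -1.36 to 0.09, adjusted p = 0.298 by limma). Cdkn1c was the tested gene with the lowest value in this comparison, while Igf2, in the same region, had the highest.

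Dlk1 encodes a transmembrane relative of the Notch ligands that holds back differentiation of precursor cells, and is expressed from the paternal copy. It lies on chromosome 12 (109452485 to 109463336). Its level was 9.61 and 9.65 (log2) in ECM, 4.86, 4.34 and 4.51 in ACM, and 4.78, 4.32 and 4.43 in TAC. No ACM array and only TAC replicate 1 among the TAC arrays detected it, and the adult groups overlapped. With ACM below detection the fold of ECM over ACM was at least 26.7, a bound set by the lowest signal detected on each adult array, and the fitted difference was 5.06 ± 0.21 (adjusted p = 4.00e-07 by limma). TAC minus ACM was -0.06 ± 0.19 (95% interval -0.49 to 0.37, adjusted p = 0.899 by limma). Its noncoding partner Meg3, expressed from the other parental copy of the same domain, had no probe.

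Mest, expressed from the paternal copy, encodes a protein of the alpha/beta hydrolase fold and is a common marker of fetal mesodermal tissue. It lies on chromosome 6 (30733506 to 30748466) and was read by 3 probes. The brightest probe stood at 11.53 and 11.23 (log2) in ECM, at 4.77, 4.33 and 4.46 in ACM, and at 5.58, 5.64 and 5.37 in TAC. It was detected on both ECM arrays and on 3 of 3 TAC arrays but on no ACM array, and the groups did not overlap. ECM exceeded ACM at least 89.6-fold (fitted difference 6.86 ± 0.20, adjusted p = 8.87e-08 by limma) and TAC by 5.85 ± 0.20 (adjusted p = 2.19e-07 by limma). TAC exceeded ACM at least 1.55-fold (fitted difference 1.01 ± 0.18, adjusted p = 0.0139 by limma), near the lower end of the scale.

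The other 2 Mest probes were also higher in ECM, at least 32.8-fold and at least 10.3-fold over ACM, but did not follow the brightest probe in TAC. When each kept probe was fitted on its own, the TAC differences were 1.01, 0.21 and 0.05, with adjusted p of 0.0169, 0.710 and 0.904 by limma. Both of these probes passed the filter only because of their signal in ECM, so their direction there was built in. The brighter of them was detected on TAC replicate 2 alone of the adult arrays and the other on no adult array. With the mean of the 3 probes the TAC difference was 0.42 (adjusted p = 0.189 by limma), and without TAC replicate 2 that of the brightest probe was 0.98 (adjusted p = 0.0562 by limma). The TAC call of Mest therefore rested on 1 of its 3 probes.

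Ndn encodes necdin, a MAGE-family protein that restrains proliferation in neurons and other cells, and is expressed from the paternal copy. It lies on chromosome 7 (62348277 to 62349928). Its level was 10.48 and 10.24 (log2) in ECM, 7.06, 6.91 and 6.61 in ACM, and 7.36, 8.09 and 8.12 in TAC. The groups did not overlap, and TAC replicate 1 lay nearest to ACM. ECM exceeded ACM by 3.50 ± 0.26 (log2, SE), 11.3-fold (adjusted p = 8.09e-06 by limma), and TAC by 2.50 ± 0.26 (adjusted p = 7.99e-05 by limma). TAC exceeded ACM by 1.00 ± 0.23 (95% interval 0.47 to 1.52, adjusted p = 0.0413 by limma), 2.00-fold. The call did not hold when any array but TAC replicate 1 was left out, with a difference of 0.87 to 1.09 and a limma adjusted p of up to 0.142, and without TAC replicate 1 the difference was 1.25.

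Peg3 and Plagl1 encode zinc-finger transcription factors and are expressed from the paternal copy. Peg3 (chromosome 7, 6703892 to 6730462) stood at 7.23 and 7.52 (log2) in ECM, at 4.56, 4.29 and 4.39 in ACM, and at 4.46, 4.43 and 5.47 in TAC. TAC replicate 3, also the TAC array highest in Igf2, was the only adult array on which Peg3 was detected, and the adult groups overlapped. ECM exceeded ACM at least 5.57-fold (fitted difference 2.96 ± 0.30, adjusted p = 5.65e-05 by limma), while TAC minus ACM was 0.38 ± 0.27 (95% interval -0.24 to 0.99, adjusted p = 0.481 by limma). Without TAC replicate 3 the latter was 0.04.

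Plagl1 (chromosome 10, 13090832 to 13131694), also known as Zac1, had 3 probes, of which 1 was detected, on ECM replicate 2 alone. Its readings over all probes and arrays lay between 4.17 and 4.64 (log2). When no filter was applied, its brightest probe differed by 0.02 between ECM and ACM (adjusted p = 0.929 by limma), but no array detected that probe. The probe detected on ECM replicate 2 had a mean of 4.56 (log2) in ECM and 4.32 in ACM, without overlap, and was not tested. A signal this close to the negative controls allows no statement on whether the gene was expressed.

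**Figure D2:**
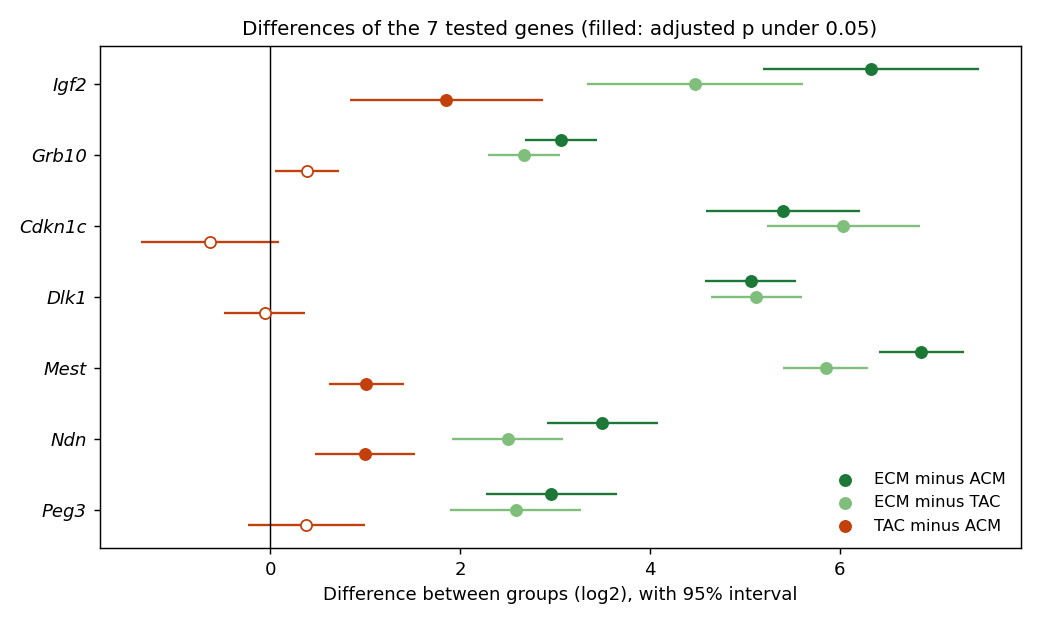
Differences between groups (log2, with 95% intervals) for the 7 tested genes, for ECM minus ACM, ECM minus TAC and TAC minus ACM. Filled points passed an adjusted p of 0.05. All embryonic differences pass and lie above 2, whereas in TAC minus ACM Igf2, Mest and Ndn pass.

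The order ECM, TAC, ACM held with calls at both steps for Igf2, Mest and Ndn. For Grb10, Cdkn1c, Dlk1 and Peg3 the step between TAC and ACM was not past the threshold. Because both differences from ACM share the ACM arrays, the direct comparison of ECM with TAC tests whether they were unequal, and it passed for all 7 genes, with 2.50 (Ndn) to 6.04 (Cdkn1c) on the log2 scale. In the embryonic comparisons each of the 7 genes was called higher under all 19 alternative settings. In TAC the calls lay near the threshold. Igf2 was called in 7 of 19 alternatives, Ndn in 8 and Mest in 16, and the difference was above 0 in every alternative for these 3 genes.

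**Figure D3:**
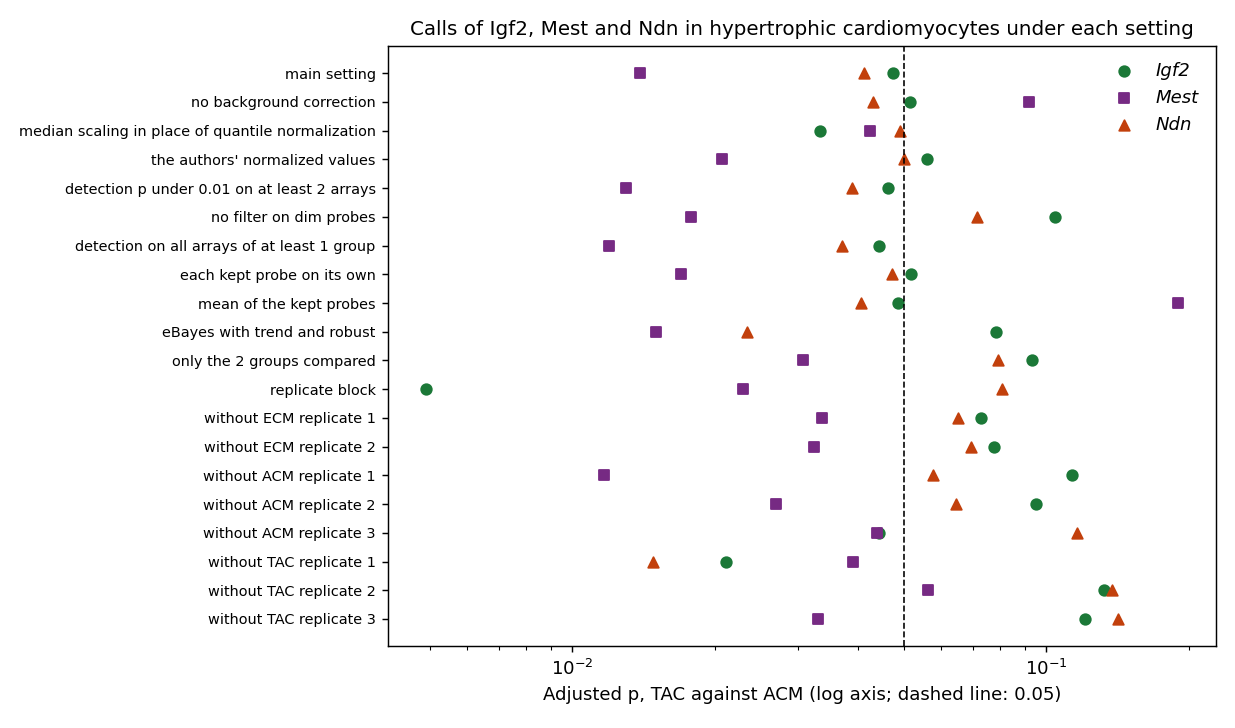
Adjusted p (log axis) of the TAC against ACM difference of Igf2, Mest and Ndn under the main setting and 19 alternatives. The dashed line marks 0.05, and points right of it are not called. Igf2 and Ndn lie on both sides of the line, between 0.00491 and 0.142, while Mest is right of it in 3 alternatives.

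The preparations were checked for their labelled cell type and for other cells. Of 13 CM marker genes 12 had a kept probe, and their summed intensity was 168847 to 175204 in ECM, 197602 to 204798 in ACM and 211370 to 224239 in TAC. Of the 12, 6 were lower and 1 was higher (Myh7, 5.35) in ECM than in ACM, and 1 (Myh7) was higher in TAC. Over all genes 26.2% were higher and 22.7% lower in ECM than in ACM, and 3.84% and 1.83% in TAC. Fibroblast markers (12 of 14 tested, among them Col1a1 and Col3a1) summed to 8099 to 8706 in ECM, 776 to 1485 in ACM and 3913 to 8045 in TAC. Of these, 10 were higher and 1 was lower in ECM than in ACM, and 9 were higher in TAC than in ACM. Col1a2 was not detected on any ACM array. Endothelial markers (12 of 12 tested) summed to 8473 to 10745 in ECM, 3002 to 5154 in ACM and 4141 to 6169 in TAC, with 8 higher and 1 lower (Robo4, -0.94, not called under median scaling) in ECM and 2 higher in TAC. Of these, Kdr was not detected on any adult array. Epicardial markers (9 of 11 tested) summed to 543 to 597 in ECM, 86.0 to 145 in ACM and 184 to 224 in TAC, and 4 of the 9 were undetected in ACM. Erythroid markers (6 of 10 tested) summed to 34378 to 34533 in ECM and to between 114 and 3397 on the adult arrays. Of 7 leukocyte markers none was called by limma in ECM or TAC against ACM, although at an unadjusted p under 0.05 1 was lower in ECM and 3 were higher in TAC. Of 7 smooth muscle and pericyte markers 2 were higher and 2 lower in ECM, and 2 higher and 1 lower in TAC. Of 4 skeletal muscle markers 1 was higher (Mylpf) and 2 were lower (Ckm and Acta1) in ECM. Their sums were 4928 to 6052 in ECM, 13721 to 24289 in ACM and 24779 to 27705 in TAC. Myod1, Myf5, Pax7, Myh1, Myh2 and Myh4 were not tested, and these sums cannot tell skeletal muscle from CMs. The part of other cell types in the results was not tested. In such bulk samples, fewer cells of a type and less RNA per cell cannot be told apart.

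Within the adult arrays the values can be set side by side. The fibroblast sum was lowest in TAC replicate 1 (3913) among the TAC arrays, the array on which Igf2 and Ndn were also lowest of the TAC group. It was highest in TAC replicate 2 (8045), whereas Igf2 was highest in TAC replicate 3 (sum 6177). Among the ACM arrays, replicate 2 had the highest fibroblast sum (1485) and the lowest Igf2, while replicate 3, with the highest Igf2, had a sum of 902. The brightest Mest probe of TAC replicates 1 to 3 stood at 5.58, 5.64 and 5.37. The endothelial sum of ACM replicate 3 (5154), the ACM array with the highest Igf2, was above that of TAC replicate 1 (4141). ACM replicate 3 also had the highest erythroid sum of the ACM arrays (1310) and the highest Cdkn1c, but TAC replicate 2, with the highest erythroid sum of the adult arrays (3397), had the lowest Cdkn1c. These are readings of 6 arrays and carry no test.

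**Figure D4:**
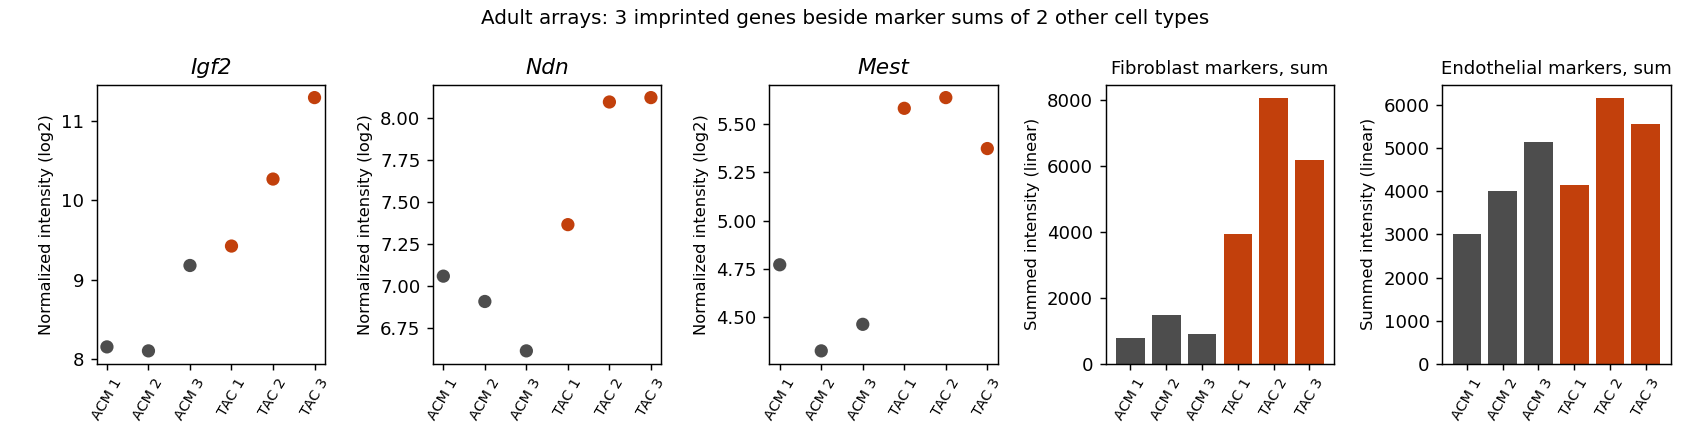
Normalized intensity (log2) of Igf2, Ndn and Mest, and summed linear intensity of 12 fibroblast and 12 endothelial marker genes, on the 3 ACM (grey) and 3 TAC (orange) arrays. The fibroblast sums of the TAC arrays, from 3913 to 8045, are all above those of the ACM arrays, while the endothelial sums overlap.

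Other imprinted genes were called in both directions between ECM and ACM, in shares close to those of all genes. Of 47 further imprinted genes listed, 36 had a probe and 23 were tested. Between ECM and ACM, 7 of the 23 were higher and 5 were lower. These were 3 and 3 of 10 listed as expressed from the paternal copy and 4 and 2 of 13 listed as expressed from the maternal copy. Which copy was active in these cells was not measured. Of the 7 higher genes Asb4, Atp10a, Nnat and Usp29 were detected on ECM arrays alone and passed the filter only there. Of the 5 lower genes Magel2 was detected on ACM arrays alone. The direction of these genes was built in, and the counts are a description. The medians were 0.19 and 0.35, beside 26.2% higher and 22.7% lower over all genes. With median scaling in place of quantile normalization, which moved the median of all genes by 0.52 between ECM and ACM, the counts were 11 higher and 2 lower.

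Igf2r, whose product carries IGF2 to the lysosome for degradation, had the largest of the higher differences. Its level was 11.79 and 12.22 (log2) in ECM, 9.19, 10.08 and 9.26 in ACM, and 9.52, 9.89 and 9.42 in TAC. ECM exceeded ACM by 2.49 ± 0.29 (adjusted p = 0.000126 by limma), and TAC minus ACM was 0.10 ± 0.26 (adjusted p = 0.873 by limma), with overlapping adult groups. Ppp1r9a (1.19), Inpp5f (1.05), Nnat (0.97, at least 1.42-fold), Atp10a (0.71, at least 1.14-fold) and Usp29 (0.57, at least 1.05-fold) followed. The 5 lower genes were Impact (-1.50), Snrpn (-1.33), Kcnq1 (-1.05), Ube3a (-1.01) and Magel2 (-0.90, at least 1.47-fold). Under median scaling Impact (-0.67), Kcnq1 (-0.10) and Ube3a (-0.17) were no longer called, without background correction Usp29 was not called, and Inpp5f was not called without either ECM array.

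In TAC against ACM, 1 of the 23 was higher, Dcn (1.23 ± 0.28, adjusted p = 0.0386 by limma), which encodes the matrix proteoglycan decorin, abundant in fibroblasts. Its level was 10.20, 11.08 and 11.38 (log2) in ACM and 11.90, 12.28 and 12.18 in TAC. Magel2 (-0.73, at least 1.31-fold), detected on 2 ACM arrays and on no TAC or ECM array, and Ppp1r9a (-0.58) were lower. Of all genes 3.84% were higher and 1.83% lower in this comparison. Magel2 passed the filter only through ACM, so its direction was built in. None of the 3 calls was stable to leaving out arrays, and Dcn was called in 12 of 19 alternatives, Magel2 in 4 of 15 and Ppp1r9a in 6 of 19. Dcn was not called without either ECM array or without any 1 of the TAC arrays, and the same arrays ended the call of Magel2. Leaving out any 1 of the 8 arrays ended that of Ppp1r9a.

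Imprinted genes of the same regions of chromosome 7, from 0.097 to 1898 kb apart, did not all move alike between ECM and ACM. Near Ndn, Magel2 (27.1 kb away) and Snrpn (1898 kb away), all expressed from the paternal copy, were lower in ECM, whereas Ndn was higher. Snrpn, which encodes a splicing protein of neurons and heart, stood at 10.34 and 10.31 (log2) in ECM and at 11.43, 11.75 and 11.81 in ACM. Magel2 was read near background, at 4.21 and 4.25 in ECM and 5.14, 4.82 and 5.43 in ACM. It passed the filter only through ACM, so its lower level in ECM was built in. Mkrn3, 67.7 kb from Ndn, differed by 0.28 ± 0.19 and was not past the threshold, though it was called higher (1.02) under median scaling. Near Cdkn1c, Kcnq1 (31.3 kb away), a potassium channel subunit, was lower (-1.05) except under median scaling. Slc22a18 (0.07) and Phlda2 (0.03) were not past the threshold, but were near background and undetected on most arrays. Their small differences therefore say little. At 338 to 402 kb from Igf2, Tspan32 (0.35), Cd81 (0.25) and Tssc4 (0.67) were not past the threshold. Of these, Tssc4 was called higher under median scaling (1.54) and Tspan32 with the authors' normalized values (0.57). Tspan32 was near background and was detected on ECM arrays alone. Usp29, 0.097 kb from Peg3, was higher by 0.57 ± 0.15, a direction built in by its detection on ECM arrays alone.

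**Figure D5:**
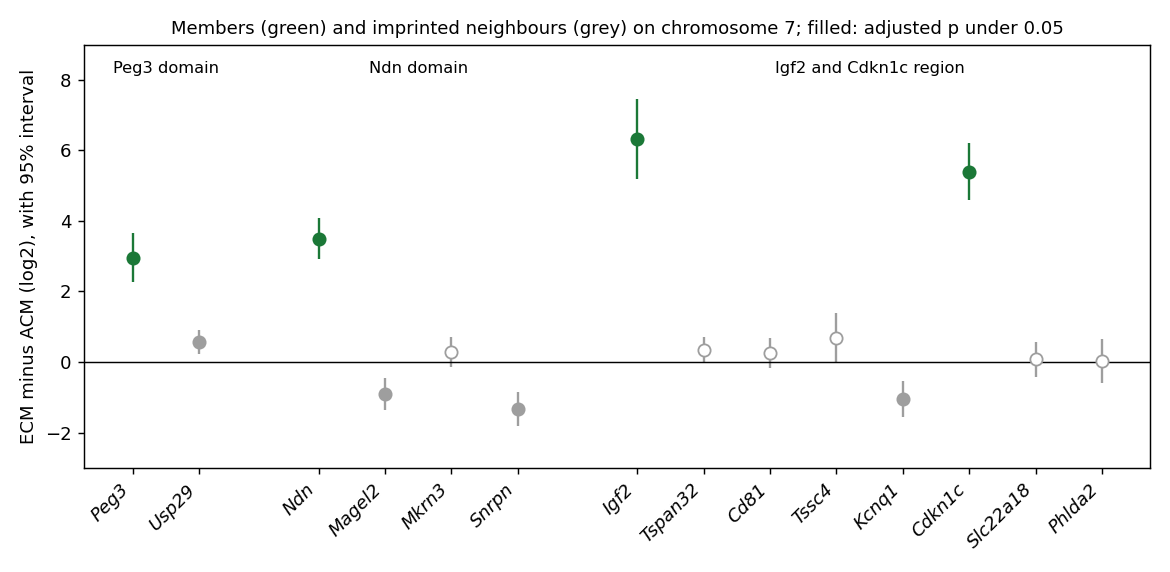
ECM minus ACM difference (log2, with 95% intervals) of the tested imprinted genes of 3 regions of chromosome 7, grouped by region. Filled points passed an adjusted p of 0.05 and green points are the growth genes, which lie at 2.96 or above, while neighbours lie between -1.33 and 0.67. Under median scaling Kcnq1 was not called, and Mkrn3 and Tssc4 were called higher. Magel2, Slc22a18, Phlda2, Tspan32 and Usp29 were read near background.

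The IGF and insulin pathway was examined as the setting of Igf2 and Grb10. IGF2 acts through the IGF1 receptor, binding proteins hold it outside the cell, and RNA-binding proteins of the Igf2bp family bind its transcript. Of 24 listed genes 17 were tested, and 12 were higher and 4 lower in ECM than in ACM, with a median difference of 1.40. Over all genes 26.2% were higher and 22.7% lower. Of the 12, Igf2bp1, Igf2bp3, Igfbp2 and Grb7 were detected on no adult array and passed the filter only through ECM, so their direction was built in. Of the 4 lower genes, Igfals and Igfbp6 were detected on no ECM array and passed only through the adult arrays, so theirs was too. Igf2bp3 stood at 10.31 and 10.41 (log2) in ECM and was not detected on any adult array (at least 44.3-fold over ACM), and Igf2bp1 was at least 7.99-fold higher. Htra1, a secreted protease that cuts IGF-binding proteins, was lower (-2.02 ± 0.16, adjusted p = 1.25e-05 by limma). Grb14, the non-imprinted relative of Grb10 and named after its values were seen, was lower as well (-2.76 ± 0.37, adjusted p = 0.000246 by limma), opposite to Grb10. It stood at 7.42 and 6.33 in ECM and at 10.10, 9.14 and 9.66 in ACM.

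In TAC against ACM 4 of the 17 were higher and 1 was lower, beside 3.84% and 1.83% of all genes. Igfbp4, which encodes a binding protein that restrains IGF, stood at 6.46, 7.06 and 7.45 (log2) in ACM, at 8.78, 9.49 and 9.03 in TAC and at 11.34 and 11.22 in ECM. It was higher in TAC by 2.11 ± 0.27 (adjusted p = 0.00334 by limma) without overlap. Igfbp7, which encodes a matrix-associated relative, was higher by 2.26 ± 0.26 (adjusted p = 0.00187 by limma) in TAC but did not differ past the threshold between ECM and ACM (-0.09 ± 0.29, 95% interval -0.74 to 0.56). Both were called under all 19 alternatives. Igf1 (0.89 ± 0.21) and its receptor Igf1r (0.96 ± 0.24), both named after their values were seen, were higher, and Irs2 (-0.98 ± 0.21), an adaptor of the insulin receptor, was lower. Igf1 was called in 6 of 19 alternatives, Igf1r in 8 and Irs2 in 9. For all 3 the call was lost without ACM replicate 3, TAC replicate 2 or TAC replicate 3, among other arrays. Igf2bp3 and Igf2bp1 were undetected on all TAC arrays, including those on which Igf2 was raised. Fibroblast marker sums were higher in TAC too (3913 to 8045, against 776 to 1485 in ACM), and their part in these values was not tested.

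Further lists bear on the roles of the genes. Their counts stand beside 26.2% higher and 22.7% lower over all genes in ECM against ACM, and 3.84% and 1.83% in TAC. Of 4 tested inhibitors of cyclin-dependent kinases other than Cdkn1c, Cdkn2d was higher in ECM (0.76 ± 0.18, adjusted p = 0.00725 by limma, and not called without ECM replicate 1), Cdkn1a, Cdkn1b and Cdkn2c were not past the threshold, and none passed in TAC. Of these 4 genes none had an unadjusted p under 0.05 in TAC. Of 7 tested genes that keep DNA methylation and imprints, 5 were higher and 1 was lower in ECM, led by Uhrf1 (5.49 ± 0.26) and Dnmt1 (3.05 ± 0.21), which copy methylation after DNA replication, and Trim28 (2.33 ± 0.16), the partner of ZFP57. Dnmt3b (2.41) and Smchd1 (0.65), named after their values were seen, completed the 5, and Smchd1 was called in 12 of 19 alternatives, not without either ECM array, ACM replicate 1, ACM replicate 3 or TAC replicate 1. The lower gene, also named after its value was seen, was the insulator protein gene Ctcf (-0.77 ± 0.20), not called under median scaling (0.18) or without ECM replicate 1. In TAC, Uhrf1 alone of the 7 was higher (1.12 ± 0.23, adjusted p = 0.0274 by limma), a call lost without ACM replicate 3, TAC replicate 2 or TAC replicate 3. Plagl2, the relative of Plagl1, and the tested Notch receptors Notch1, Notch3 and Notch4 were all 4 higher in ECM, by 1.31 (Notch3) to 2.58 (Plagl2), and none passed in TAC, where 1 had an unadjusted p under 0.05. Notch3 was not called without either ECM array, ACM replicate 1 or TAC replicate 3.

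The genes whose pattern over the 8 arrays lay nearest to each member were read as a description, since the arrays are shared and a gene high in ECM alone correlates with any other such gene. Igf2 was nearest to Copz1 (Pearson r = 0.994), Mest to E2f1 (0.998), Dlk1 to 6330403K07Rik (0.999) and Peg3 to Efcab11 (0.991). Ndn was nearest to Cdk1 (0.995), Grb10 to Gpc3 (0.999) and Cdkn1c to Mcm7 (0.998). E2f1, Cdk1 and Mcm7 encode factors of DNA replication and cell division, and Gpc3 encodes glypican-3, a cell-surface proteoglycan of growing fetal tissues. From 330 genes (Igf2) to 824 genes (Grb10) had an r above 0.95 with a member, so no nearest gene stands out. Between the members themselves r ran from 0.87 (Ndn and Cdkn1c) to 0.99 (Mest and Grb10), both over the same 8 arrays.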

How the data were processed

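Values deposited by the authors were linear bead intensity means for each probe, not normalized, from GenomeStudio (2.0 per the series text, 2011 per the submitters' processing notes). The authors also deposited a detection p-value with each. Intensities that the authors had already normalized formed another table, linear by their range. In limma 3.58.1 (R 4.3.3), neqc took the background from detection p-values, added an offset of 16, quantile-normalized the arrays and returned log2 values. Of 25697 probes 23978 had 1 gene symbol, and 1719 had none and were left out. The brightest kept probe stood for each of 9803 genes. The 3 groups entered 1 fit (lmFit, contrasts.fit, eBayes). The lowest detected signal of an array set the bounds on folds. Promoters came from RefSeq (GRCm38.p6).

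The members and lists were chosen with earlier results of these data known. The text names every member, up to 6 other imprinted genes per direction and comparison with the largest called differences without overlap, up to 3 genes of each other list per comparison with the smallest p, the first marker genes of each cell type and the genes nearest to each member. Background, normalization, filter, probe summary, model and single arrays were varied. The steps were tested on simulated data. Chip effects were not modelled, as the chips were not known, and the number of arrays limits the precision. Python 3.11.15, pandas 2.3.3 and matplotlib 3.10.9 served for sequences, tables and plots.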

Additional observations from a re-analysis of the deposited data

How the results depend on the processing

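In ECM against ACM and ECM against TAC, each of the 7 genes was called higher under all 19 alternatives, 133 of 133 gene results in each comparison, and leaving out any array gave 7 genes higher. In TAC against ACM, 107 of 133 gene results were on the same side of the threshold as reported and 26 were no longer called, all of Igf2 (12), Ndn (11) and Mest (3). The count of genes higher in TAC was 3 in the reported setting and 1 without background correction, with the authors' normalized values, with no filter on dim probes or with only the 2 groups compared in the fit. When arrays were left out in turn it was 0 (without TAC replicate 2) to 3, and the cause was not tested. Dlk1, not called in TAC, was at 0.09 instead of -0.06 without ACM replicate 1 and at 0.04 without TAC replicate 2.

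With the replicate number as a block, 2 genes were higher in TAC (Igf2, adjusted p = 0.00491, and Mest, 0.0229, both by limma), Ndn was at 1.00 (0.0806), and 7 genes were higher in ECM than in ACM or TAC. Whether the numbers pair the samples is not given. Deviations of same-numbered arrays from their group means correlated by -0.10 to 0.13 over 7 pairs. Those of other-numbered arrays correlated by -0.13 to 0.10 over 14. The 2 ECM arrays deviate from their mean by equal and opposite amounts, so these ranges partly mirror each other. The ranges therefore cannot decide whether the numbers pair the samples.

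Over all genes, median scaling gave 4561 higher and 1117 lower in ECM against ACM, where 2573 and 2226 were called, and 80 rather than 179 lower in TAC against ACM. With only the 2 groups compared, 229 and 71 were called in TAC against ACM in place of 376 and 179. Genes near background on the adult arrays (Dlk1, Peg3, Plagl1 and the adult readings of Mest) have a bound at most there.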
